A study of Mus musculus with 4 samples.

Results

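The contacts described here join HindIII fragments that lie 3000 kb or more apart within the 5.3 Mb of mouse chromosome 3 that hold the epidermal differentiation complex (EDC), from 89.9 to 95.2 Mb in mm9. They were chosen by distance alone, from the distance that each of the 4 contact tables gives beside every pair of fragments. The 2 keratinocyte libraries listed 19151 and 12069 such contacts of 95692 and 67210 in all, and the 2 thymocyte libraries listed 6623 of 45861 and 8207 of 53420. All 4 libraries shared 2877 of them, out of 23395 contacts of any distance. Chromosome Conformation Capture Carbon Copy (5C) counts how often oligonucleotide probes on a pair of fragments were ligated to each other. The cells came from newborn C57BL/6 mice, and neither transgene nor treatment is named for them. One group was primary epidermal keratinocytes, cultured for 15 hours at 32 °C after plating, and the other was primary thymocytes, used by the study as cells in which the epidermal genes are silent. All were fixed in 1% formaldehyde for 10 minutes, and nothing in the labels states that the 2 libraries of a cell type came from separate animals. The tables hold no expression values, so the cell types could not be checked against markers.

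As background, chromatin is folded into topologically associating domains (TADs), within which fragments meet more often than across borders, and the frequency of contacts usually falls with distance along the chromosome. The central part of the EDC holds the loricrin, involucrin, small proline-rich, late cornified envelope and filaggrin-like genes of the outer epidermis. It lies in the middle of the locus, between gene-poor stretches, with gene-rich domains beyond them. The study also counts the gene-poor TAD2 and the S100 genes on either side as parts of the EDC. Contacts of 3 Mb and more mostly run from TAD1 at the left, where S100 genes and broadly expressed genes lie, to TAD6 and TAD7 at the right. Others start in TAD2 or TAD3, or end in TAD5 or in TAD4, where the filaggrin-like genes lie.

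With the average keratinocyte borders of the study, the locus held 7 TADs, and the very long contacts joined 8 pairs of them. Of the 2877 contacts shared by all 4 libraries, 1297 joined TAD1 to TAD6, 708 joined TAD1 to TAD7 and 396 joined TAD1 to TAD4. A further 218 joined TAD2 to TAD6, 148 TAD2 to TAD7, 72 TAD1 to TAD5, 36 TAD3 to TAD7 and 2 TAD2 to TAD5. They used 423 of the 712 fragments of the locus, among them 122 of 149 in TAD1, 91 of 134 in TAD6 and 53 of 64 in TAD7, but only 17 of 117 in TAD3. TAD1, TAD6 and TAD7 held 29, 22 and 19 protein-coding genes of the GENCODE annotation, while TAD2 held 3. TAD5, which the study also classes as gene-poor, held 11 in this annotation, between 93.53 and 94.00 Mb. The GC content of fragments had a median of 44.0% in TAD1, 43.5% in TAD6 and 45.3% in TAD7 against 38.7% in TAD2.

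The probe pairs of 3 contacts show what was measured, and they are those whose values are given further on. They are the contact with the highest Z score common to all libraries, the one highest in thymocytes and the one that spans most of the locus. Each probe is given 5′ to 3′ without its universal tail, with its part of the HindIII site in capitals. Each sequence was found in mm9 at the stated place, forward probes on the plus strand and reverse probes on the minus strand. In a 5C product the forward probe is followed by the reverse probe, which rebuilds the HindIII site between them, as the joined sequence of the first pair shows.
FOR_1595, intron of Pi4kb, chr3:94782093-94782122, plus strand: gagctcaccacttaattatctcagtttAAG
REV_145, intergenic near S100a16, chr3:90370342-90370371, minus strand: CTTgggagtgatggcacacatccgtaaggc
FOR_1595 joined to REV_145: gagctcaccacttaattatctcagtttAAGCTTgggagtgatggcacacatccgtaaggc
FOR_29, Nup210l, chr3:89999800-89999829, plus strand: ccagtggataatcttagcctgtgagctAAG
REV_1049, intergenic near Flg2, chr3:93040051-93040080, minus strand: CTTatacagcccataagggatgagtttgct
FOR_2, Nup210l, chr3:89909381-89909410, plus strand: cagggaattattttccaaggtaagaggAAG
REV_1702, intergenic near Setdb1, chr3:95191498-95191527, minus strand: CTTttagagatacaattgcctctgacctct

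The depth in reads is unknown, since the tables hold corrected frequencies, and the libraries differed in how many contacts they listed. The keratinocyte libraries listed 80.1% and 50.9% of the pairs of their own fragments at 3000 kb or more, and the thymocyte libraries 27.1% and 34.9%. No listed frequency was 0, and pairs absent from a table carry no value. Over the 2877 shared contacts the Z scores of the keratinocyte libraries correlated with each other at r = 0.25 and those of the thymocyte libraries at r = 0.20. Between cell types, the first keratinocyte library had r = 0.078 and 0.058 with the thymocyte libraries and the second had r = 0.30 and 0.23. These are Pearson correlations across contacts, which share fragments and are not independent, and they are given as a description.

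In all 4 libraries the frequency of contacts rose from 3 to 5.3 Mb. The deposited 5C frequency, which the authors corrected for the coverage of each probe, had a median of 44.2 at 3000 to 3500 kb in the first keratinocyte library, and then 46.6, 57.2, 70.9 and 94.0 in the following windows of 500 kb. The second keratinocyte library went from 27.8 through 35.5, 44.3 and 48.4 to 53.1. The first thymocyte library had medians of 65.7, 96.4, 111, 118 and 113 in the same windows, and the second had 43.6, 83.6, 82.6, 89.8 and 93.6. The keratinocyte libraries thus climbed in every window, while both thymocyte libraries gained most between the first and the second window and changed little beyond 4 Mb. The median at 4500 kb and more exceeded that at 3000 to 3500 kb by 1.65 and 1.77 times in keratinocytes and by 1.77 and 2.07 times in thymocytes, or 0.85 ± 0.14 on the log2 scale (SD, n = 4 libraries).

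The threshold of 3000 kb fell at a different point of the curve in each cell type. Among windows of 500 kb, the lowest median lay at 3000 to 3500 kb in both keratinocyte libraries. It lay at 1500 to 2000 kb in the first thymocyte library, with a median frequency of 43.3, and at 2000 to 2500 kb in the second, with 17.5. In the 100 kb just outside the threshold the median frequency was 48.1 and 31.6 in keratinocytes and 45.8 and 47.9 in thymocytes. In the 100 kb just inside it was 47.5 and 29.9 in keratinocytes and 55.1 and 38.9 in thymocytes.

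**Figure D1:**
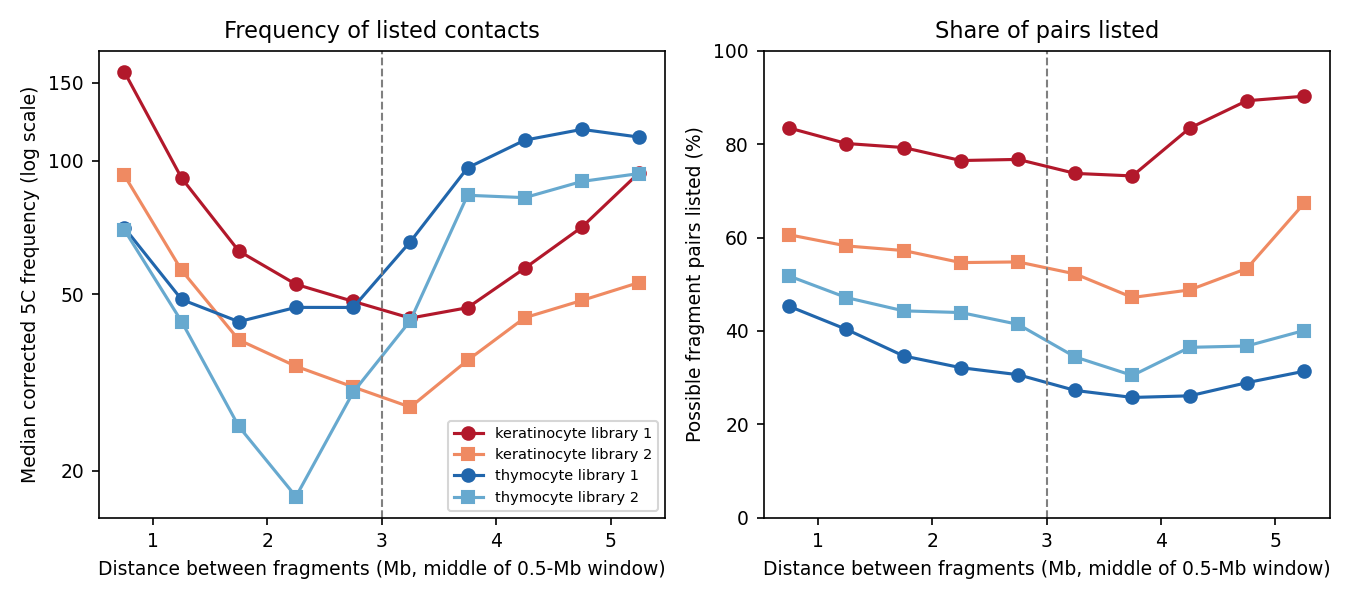
Median corrected 5C frequency of the listed contacts (left, log axis) and share of the possible fragment pairs that each library listed (right, in percent), against the distance between fragments in windows of 0.5 Mb, with 1 line per library and a dashed line at 3 Mb. In the left panel the lines rise from the first window past 3 Mb to the last, except for the last step of the first thymocyte library, from 118 to 113, and the step of the second from 83.6 to 82.6. In the right panel the share falls after the first window past 3 Mb in every library and is higher in the last window than in the first.

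The share of listed pairs first fell and then rose. From 3000 to 3500 kb to the next window it fell from 73.7% to 73.2% and from 52.2% to 47.2% in the keratinocyte libraries, and from 27.3% to 25.8% and from 34.4% to 30.5% in the thymocyte libraries. From the window of 3000 to 3500 kb to contacts of 4500 kb and more it went from 73.7% to 89.4% and from 52.2% to 54.8% in the keratinocyte libraries, and from 27.3% to 29.2% and from 34.4% to 37.1% in the thymocyte libraries. When pairs without a listed contact were counted as 0, the mean frequency still rose, by 1.90 and 1.68 times in keratinocytes and by 1.66 and 1.96 times in thymocytes. The rise was also seen along single fragments. Of the fragments with at least 5 contacts on either side of 4000 kb, between 77.5% and 88.4%, depending on the library and on which end the fragment formed, had a higher mean log2 frequency beyond 4000 kb than from 3000 to 4000 kb.

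Which fragment formed an end accounted for a part of the spread. Additive effects of the forward and the reverse fragment explained 10.4% and 9.63% of the variance of log2 frequency in keratinocytes and 18.8% and 21.5% in thymocytes, after adjustment for the number of effects. At 2000 to 3000 kb the same effects explained 8.06%, 5.34%, 8.48% and 10.4%, in the same order of libraries. Fragments of higher GC content tended to have higher mean log2 frequencies, with Spearman correlations of 0.32 and 0.29 in keratinocytes and 0.15 and 0.26 in thymocytes over 429 to 545 fragments. For fragment length they lay between -0.11 and -0.0031. These fragments share libraries and partners, and the part of GC content in the rise was not tested.

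The keratinocyte and thymocyte maps differed in how the very long contacts stood against contacts of moderate length. Relative to the 5024 shared contacts at 1000 to 2000 kb in the same library, the mean log2 frequency of the 2877 very long contacts was lower in both keratinocyte libraries, at a geometric mean of 75.8% and 83.7% of that level. It was higher in both thymocyte libraries, at 206% and 213% of it. On the log2 scale this was -0.33 ± 0.10 in keratinocytes and 1.07 ± 0.036 in thymocytes (SD, n = 2 each), a difference of -1.39 that no rescaling of a whole library can alter. The libraries of the cell types were separated by a gap of 1.30, which is larger than either spread. The ordering did not depend on the restriction to shared contacts. Over all contacts that each library listed, the levels were 76.3% and 82.5% against 190% and 206%. With unlisted pairs counted as 0 they were 73.4% and 76.3% against 132% and 141%, over 21755 very long pairs of the fragments that all libraries used, a difference of -0.87 on the log2 scale. The level in thymocytes depended on the band of reference, which held or bordered their lowest medians. At 500 to 1000 kb the mean log2 frequency was 7.34 and 6.63 in keratinocytes and 6.15 and 6.20 in thymocytes. For the very long contacts it was 5.84, 5.35, 6.55 and 6.21, hardly above that band in the second thymocyte library. With 2 libraries against 2 a two-sided exact permutation test cannot give a p under 0.333, so no p is given for these means.

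The absolute difference at 3 Mb and more depended on the scale. In the deposited frequencies the mean log2 frequency of the shared contacts was 5.84 and 5.35 in keratinocytes and 6.55 and 6.21 in thymocytes, a difference of -0.78 for keratinocytes minus thymocytes. Both thymocyte libraries exceeded both keratinocyte libraries at 1359 contacts, or 47.2%, against 12.4% of all 23395 contacts. Both keratinocyte libraries were higher at 95, or 3.30%, against 38.2% of all. When each library was scaled to the same total over the shared contacts the difference turned to 0.29, the libraries overlapped, and both keratinocyte libraries were higher at 720 and both thymocyte libraries at 232 of the very long contacts (8.06%), against 70.5% and 2.44% of all contacts. When libraries were scaled to the same median at 1000 to 2000 kb it was -1.48, and both thymocyte libraries were higher at 76.6%, against 26.4% of all contacts. The median difference over all contacts was 0.58 as deposited, 1.66 with the same total and -0.12 with the same median. With unlisted pairs counted as 0 the mean frequency at 3 Mb and more was 52.7 and 26.5 in keratinocytes and 30.4 and 31.4 in thymocytes, so that the libraries overlapped and the difference was 0.27, or -0.22 without the first keratinocyte library. No direction of the absolute difference is therefore given.

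A scale moves the difference by the same amount at every distance, so its course with distance is the same at each. As deposited, keratinocytes minus thymocytes was 0.81 on the log2 scale at 500 to 1000 kb, 0.61 at 1000 to 2000 kb and 0.29 at 2000 to 3000 kb. Past the threshold it was -0.62 at 3000 to 3500 kb, -1.06 at 3500 to 4000 kb, -0.88 at 4000 to 4500 kb and -0.68 from 4500 kb on. Counting unlisted pairs as 0 does not fix the course in this way, and the lowest point lay at 3500 to 4000 kb there as well, where the difference was 0.043 against 1.15 at 1000 to 2000 kb and 0.39 from 4500 kb on.

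**Figure D2:**
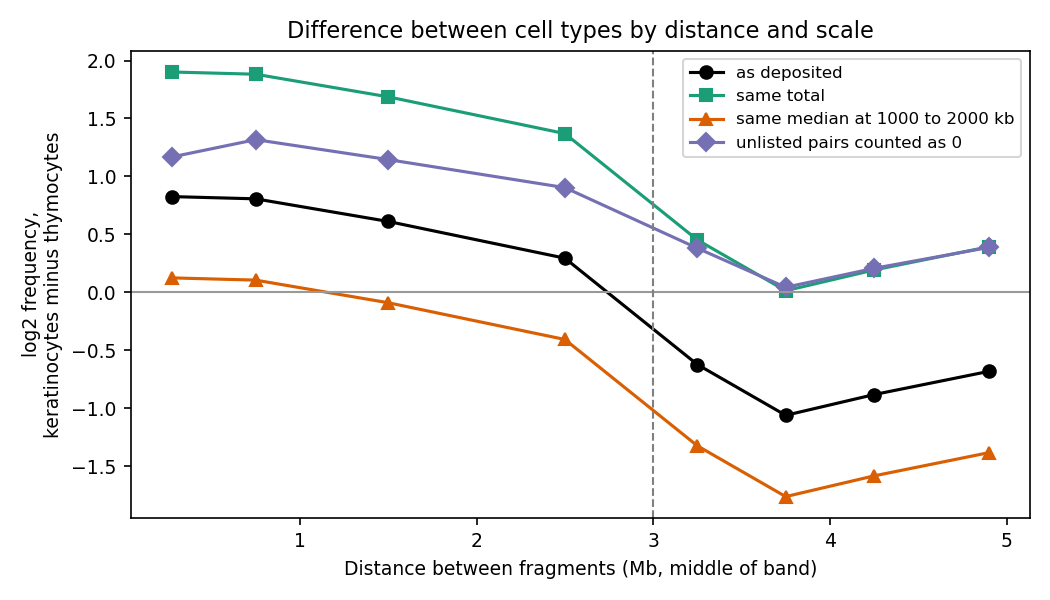
Difference of log2 frequency, keratinocytes minus thymocytes (mean of 2 libraries each), against the distance between fragments in Mb, for contacts listed in all 4 libraries at 3 scales and for all pairs of shared fragments with unlisted pairs counted as 0. From 1 Mb on every line falls until 3.5 to 4 Mb, where it lies at -1.06 as deposited, and all turn upwards beyond. The 3 lines of shared contacts differ by a constant only, so the line with unlisted pairs as 0, at 0.043 there, is the one that could have taken another course.

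Among pairs of 250 kb regions with 20 or more shared contacts, of which there were 28, the highest mean log2 frequency fell on different pairs in the 2 cell types. Over these pairs the mean ranged from 4.61 to 6.14 in keratinocytes and from 5.44 to 6.70 in thymocytes. The pair of the very ends, 89.90 to 90.15 Mb with 95.15 Mb and beyond, had only 19 contacts and was left out. Its mean was 6.06 in keratinocytes and 6.45 in thymocytes. In keratinocytes it was highest between 89.90 to 90.15 Mb, which holds Nup210l, and 94.90 to 95.15 Mb in TAD7, with median frequencies of 101 and 54.7 over 186 contacts. The thymocyte libraries had medians of 125 and 93.4 there. In thymocytes the mean was highest, at 6.70, between 90.15 to 90.40 Mb and 93.90 to 94.15 Mb, where 22 contacts had medians of 110 and 94.2, and it was 6.69 between 89.90 to 90.15 Mb and 94.65 to 94.90 Mb. The left region of 89.90 to 90.15 Mb had thymocyte medians of 120 and 85.0 with 93.90 to 94.15 Mb and of 131 and 92.8 with 94.65 to 94.90 Mb. In keratinocytes the same pairs had medians of 52.0 and 40.6 and of 78.4 and 49.0.

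**Figure D3:**
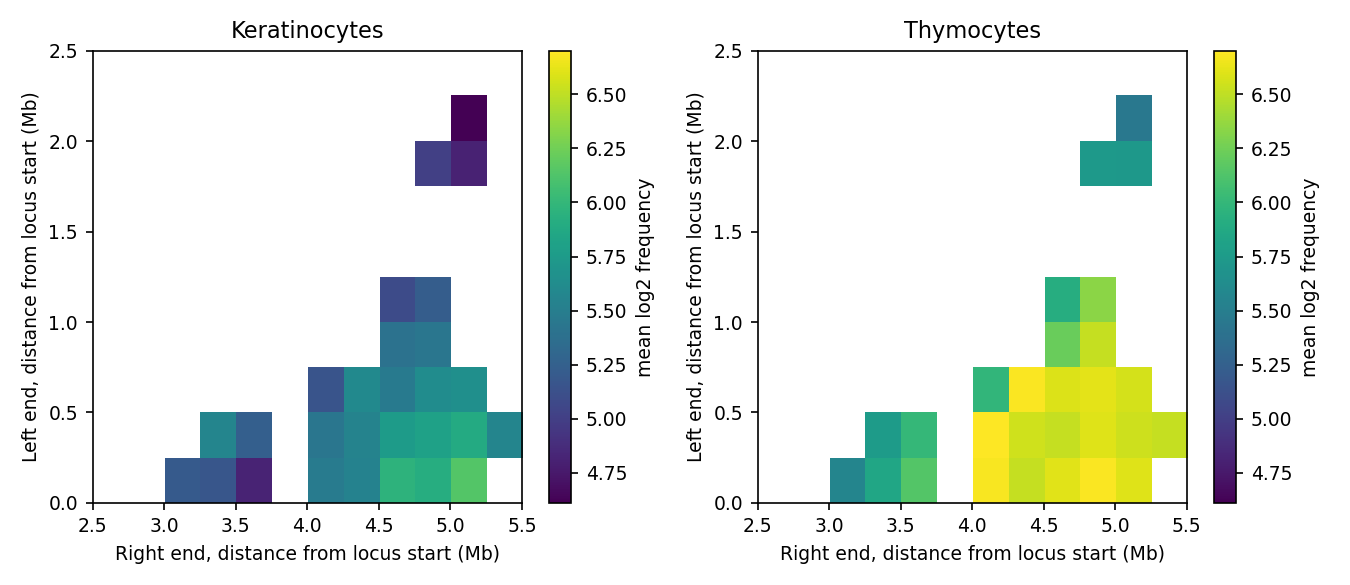
Mean log2 frequency of contacts listed in all 4 libraries between 250 kb regions of the left end (vertical axis, Mb from the start of the locus) and of the right end (horizontal axis, Mb), as the mean of the 2 libraries of each cell type on one colour scale. Region pairs with fewer than 20 contacts are left white. The keratinocyte map is brightest towards the lower right, at 6.14 between 89.90 to 90.15 Mb and 94.90 to 95.15 Mb, and the thymocyte map reaches 6.70.

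Pairs of TADs were compared over all distances and at matched distance. Over all distances the median frequency was 66.2 and 46.5 in keratinocytes and 118 and 87.8 in thymocytes for TAD1 with TAD6, and 81.0, 50.4, 121 and 91.1 for TAD1 with TAD7. For TAD1 with TAD4 it was 58.8, 29.9, 67.7 and 44.4, and for TAD2 with TAD6 it was 48.0, 30.8, 74.96 and 52.9. All 4 libraries placed TAD1 with TAD7 and TAD1 with TAD6 above these others. At a matched distance of 3500 to 4000 kb, where 262 contacts joined TAD1 to TAD6 and 90 joined TAD2 to TAD6, the medians came to 54.9, 39.5, 108 and 91.4 for the gene-rich pair. They were 49.6, 34.2, 90.1 and 63.4 for the pair with the gene-poor TAD2, lower in each of the 4 libraries. At 3000 to 3500 kb TAD1 with TAD4 had medians of 58.9, 30.0, 67.8 and 44.4, TAD2 with TAD6 had 45.8, 27.9, 70.3 and 45.1, and TAD2 with TAD7 had 36.8, 25.9, 77.6 and 45.3. There the pairs with TAD2 lay below TAD1 with TAD4 in both keratinocyte libraries and above it in both thymocyte libraries. TAD3 with TAD7, also a gene-rich pair, had 45.3, 26.9, 58.4 and 37.8 over 36 contacts, below TAD2 with TAD6 in each library. TAD1 with TAD5, which the study classes as gene-poor, had 43.6, 29.8, 77.7 and 49.9 over 56. Pairs with TAD2 were thus not lower than gene-rich pairs at every distance. For TAD2 with TAD7 at 3500 to 4000 kb the medians were 48.0, 37.6, 98.0 and 72.1 over 45 contacts. At 4000 to 4500 kb the medians of TAD1 with TAD6, TAD1 with TAD7 and TAD2 with TAD7 lay between 62.9 and 66.0 in the first keratinocyte library, between 46.3 and 50.8 in the second, between 114 and 118 in the first thymocyte library and between 72.1 and 86.8 in the second.

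**Figure D4:**
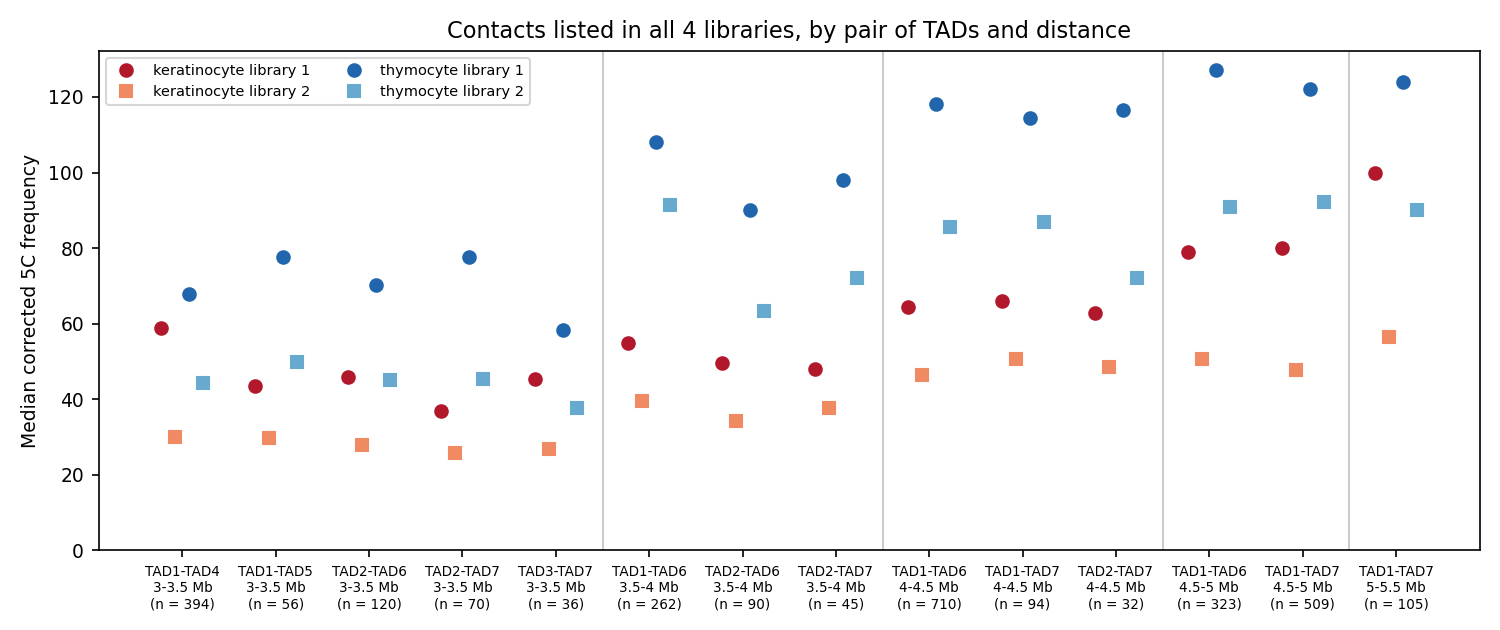
Median corrected 5C frequency (vertical axis) of contacts listed in all 4 libraries, by pair of TADs and window of distance, with 1 point per library and the number of contacts under each pair. Points lie higher in the windows from 3.5 Mb on than at 3 to 3.5 Mb for each pair that has both, while beyond 4 Mb some fall, as TAD1 with TAD6 in the second thymocyte library from 91.4 to 85.6. At 3.5 to 4 Mb the pair of TAD1 with TAD6 has the highest value in every library (54.9, 39.5, 108 and 91.4).

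Against the frequency expected at each distance in its own library, the very long contacts differed little between cell types. The Z score is the frequency minus that expectation, divided by its standard deviation, so the rise with distance and most of the difference in level are already removed from it. Its mean over the shared contacts was 0.48 and 0.61 in keratinocytes and 0.39 and 0.45 in thymocytes, a difference of 0.12 that was smaller with the median (0.030) and with all contacts that each library listed (0.020). Both keratinocyte libraries were higher at 20.9% of the contacts, against 21.1% of all contacts, and both thymocyte libraries at 20.4%, against 19.1%. The mean Z score was higher in keratinocytes for 7 of 7 pairs of TADs with 20 or more contacts, but the median Z score for 5 and the deposited log2 frequency for 0. The libraries did not overlap for TAD1 with TAD7 (0.49 and 0.52 against 0.23 and 0.36), TAD1 with TAD6 (0.46 and 0.56 against 0.39 and 0.42) and TAD2 with TAD6 (0.42 and 0.45 against 0.40 and 0.36). They overlapped for the other 4 pairs, and with the median in place of the mean also for these 3, whose differences were then 0.033, 0.0067 and -0.00016.

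No single contact passed a test between the cell types. In limma on the Z scores of all 23395 contacts, 0 had an adjusted p under 0.05, and 182 of the 2877 very long contacts (6.33%) had an unadjusted p under it, against 5.11% of all. In limma on log2 frequency 0.487% of all contacts passed, none of them 3000 kb or more apart, where the lowest adjusted p was 0.0654 and 10.1% had an unadjusted p under the threshold, against 11.4% of all. In simulated data of the same size, limma on Z scores found 0 of 200 contacts shifted by 8 and 148 of 200 shifted by 16. The simulation shuffled the spreads of the real contacts between contacts. Real standard errors differed widely, with 0.48 for FOR_1027 with REV_3 and 6.14 for FOR_1165 with REV_155. The simulation therefore shows low power with 2 libraries of each cell type, but sets no limit for a single contact.

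Contacts called within a cell type, at the deposited q-value under 0.05 in both of its libraries, are given beside their share over all distances. In keratinocytes 212 of 10542 contacts listed by both libraries were called, or 2.01%, against 1.99% over all distances. In thymocytes 97 of 3852 were called, or 2.52%, against 4.03%. The thymocyte share went from 4.09% at 3000 to 3500 kb through 2.30%, 2.08% and 1.78% to 0 of 116 contacts at 5000 kb and more, which allows a share of up to 2.59% by the counts alone. The keratinocyte share stayed between 1.59% and 2.31% in the same windows. Over contacts that all 4 libraries listed, 52 were called in keratinocytes (1.81%, against 2.03% of all) and 56 in thymocytes (1.95%, against 3.77%).

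TAD1 was the left end of 78.8% of the called contacts in keratinocytes, against 78.5% of those listed by both libraries, and of 86.6% in thymocytes, against 83.2%. In keratinocytes 83 of the 212 joined TAD1 to TAD6, 41 TAD1 to TAD7, 36 TAD1 to TAD4 and 27 TAD2 to TAD6, and in thymocytes 43 of the 97 joined TAD1 to TAD6 and 30 TAD1 to TAD4. The share of listed contacts called between TAD1 and TAD4, where the filaggrin-like genes and S100a10 lie, was 5.24% in thymocytes and 2.34% in keratinocytes. At 3000 to 3500 kb, where nearly all shared contacts of TAD1 with TAD4 lay, it was 4.09% and 2.31% for any pair of TADs. Between TAD1 and TAD7 it was 0.868% and 1.74%. For any pair it was 2.08% and 2.05% at 4000 to 4500 kb and 1.78% and 1.94% at 4500 to 5000 kb. Over all distances it was 4.03% and 1.99%, so the values by pair of TADs are not separated from distance. These differences between cell types were not tested. A fragment within 5 kb of the start of a protein-coding gene stood at both ends of 13.2% of the contacts called in keratinocytes, against 12.5% of those listed. In thymocytes it was 12.4% against 13.3%.

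Called contacts were spread over many fragments. In keratinocytes 241 fragments took part in the 212 called contacts and 138 of them in 1 only, and in thymocytes 142 took part in 97 and 106 in 1 only. The fragment with most in keratinocytes was REV_11, in Nup210l, a relative of a nuclear pore gene, with 7 of 89 listed contacts. It met fragments at or nearest to Flg, Rfx5, Cgn, Cdc42se1, Gabpb2, Pip5k1a and Riiad1. With 6 each followed FOR_1412 near Them5, which codes for a thioesterase, FOR_1541 near Pogz, a zinc finger gene, REV_132 in S100a14, a calcium-binding S100 gene, and REV_364 in TAD2, 113 kb from the nearest gene. In thymocytes REV_1, over Tpm3 (a tropomyosin) and Nup210l, had 5 of 14 and REV_1477, in an intron of Tuft1 (tuftelin), 5 of 35. REV_1182 in TAD4, 45.4 kb from Tdpoz1, had 4 of 11, and REV_1403 in Them4, another thioesterase gene, had 4 of 34. FOR_1475, also in an intron of Tuft1, had 4 of 36.

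In all 4 libraries 10 contacts were called, or 0.348% of the 2877, against 0.581% of all 23395. They lay 3064 to 4411 kb apart and used 16 fragments, of which 4 took part in 2 contacts each. All joined TAD1 or TAD2 to TAD4 or TAD6. The 8 with the highest lowest Z score are described here.

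The contact of REV_145, in chr3:90370241-90370371 at 23.2 kb from S100a16, with FOR_1595, in chr3:94781657-94782122 in an intron of Pi4kb, a lipid kinase gene, led them. Its frequency was 358 and 335 in keratinocytes and 513 and 365 in thymocytes, where 62.2, 43.4, 116 and 86.5 were expected at 4411 kb. Its Z scores were 9.07 and 14.95 in keratinocytes and 7.60 and 7.72 in thymocytes. Both keratinocyte libraries lay above both thymocyte libraries in Z score and below them in frequency, and the limma difference of Z scores was 4.34 ± 4.16 (SE, adjusted p = 0.782).

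FOR_83, in an exon of Ints3, a subunit gene of the Integrator complex, met REV_1164, 28.7 kb from S100a10, at 3178 kb. S100a10 codes for the partner of annexin A2. The frequency of this contact was 240 and 222 in keratinocytes and 334 and 225 in thymocytes, or 5.27, 9.29, 5.32 and 6.28 times the expected frequency. The cell types overlapped, with a limma difference of Z scores of 0.42 ± 4.01 (SE, adjusted p = 0.977).

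REV_1441, a fragment of chr3:94277645-94297403 over Celf3, an RNA-binding protein gene, took part in 2 of the contacts. With FOR_77, 2.29 kb from the fatty acid transporter family gene Slc27a3 and 4091 kb away, its frequency was 344 and 320 in keratinocytes and 524 and 187 in thymocytes. With FOR_280, in the gene-poor TAD2 at 112 kb from the nearest gene, it was 213 and 229 in keratinocytes and 147 and 150 in thymocytes at 3497 kb. The latter was higher in both keratinocyte libraries than in both thymocyte libraries, at 4.89 and 9.76 times the expected frequency against 2.74 and 3.00 times, with a limma difference of Z scores of 7.36 ± 5.76 (SE, adjusted p = 0.768).

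FOR_29, in an exon of Nup210l, also met 2 fragments, both in the stretch of TAD4 between S100a10 and the Tdpoz genes. With REV_1166, at 3399 kb, its frequency was 141 and 108 in keratinocytes and 281 and 467 in thymocytes, and with REV_1171, at 3408 kb, it was 154, 106, 207 and 320. Both were higher in both thymocyte libraries in frequency, while the Z scores of the cell types overlapped: for REV_1166 they were 3.80 and 5.76 in keratinocytes and 5.36 and 12.55 in thymocytes.

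The other 2 of the 8 were REV_59, 6.80 kb from Gatad2b, with FOR_1097 in Rptn, and REV_164, 3.87 kb from S100a6, with FOR_1475 in Tuft1. Gatad2b codes for a subunit of the NuRD complex, and Rptn for repetin, a filaggrin-like protein of the cornified envelope. Its frequency with REV_59, at 3064 kb, was 393 and 131 in keratinocytes and 197 and 104 in thymocytes, so the 2 keratinocyte libraries differed by more than the cell types did. The contact of REV_164 with FOR_1475, at 4002 kb, had frequencies of 168 and 167 in keratinocytes and 628 and 375 in thymocytes, above both keratinocyte libraries in each. Its Z scores overlapped between the cell types, at 3.46 and 9.30 in keratinocytes and 11.18 and 8.12 in thymocytes.

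**Figure D5:**
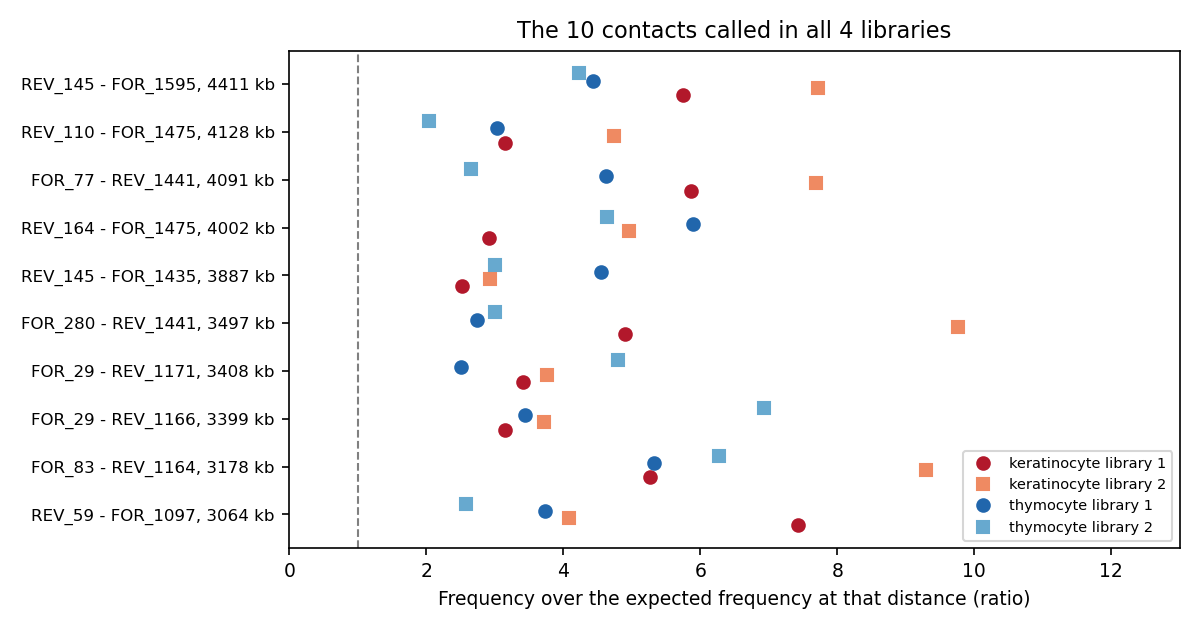
Frequency divided by the frequency expected at that distance (horizontal axis, ratio, dashed line at 1) for the 10 contacts of 3000 kb or more called in all 4 libraries, named by left and right fragment and distance, with 1 point per library. All points lie above 1, and the highest is FOR_280 with REV_1441 at 9.76 in the second keratinocyte library.

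Contacts with the highest scores in 1 cell type were mostly weaker in the other, as follows from choosing them so. In keratinocytes the 4 with the highest lower Z score included 3 of those above and REV_168, 14.4 kb from S100a6, with FOR_1604 in an intron of Pi4kb, at 4362 kb. Its frequency was 322 and 250 in keratinocytes and 192 and 311 in thymocytes, or 5.09, 4.61, 1.71 and 3.56 times the expected frequency. The same REV_168 met FOR_1624, in Pip5k1a, another lipid kinase gene, at 4428 kb, and this was among the 4 highest in thymocytes. Its frequencies were 657 and 342 there and 115 and 229 in keratinocytes. The Z scores of the cell types overlapped, at 10.15 and 8.57 in thymocytes and 1.89 and 10.60 in keratinocytes. In thymocytes FOR_29 with REV_1049, 12.3 kb from the filaggrin-like gene Flg2, was the highest, with frequencies of 326 and 282 in thymocytes and 133 and 52.4 in keratinocytes at 3037 kb. Its Z scores were 10.81 and 16.66 in thymocytes and 2.87 and 1.60 in keratinocytes, with a limma difference of -11.50 ± 5.16 (SE, adjusted p = 0.767).

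The longest contact that all 4 libraries listed, FOR_2 in Nup210l with REV_1702 at 29.4 kb from Setdb1, a histone methyltransferase gene, spanned 5281 kb. Its frequency was 95.8 and 68.7 in keratinocytes and 116 and 68.3 in thymocytes. This was 1.04, 1.35, 1.01 and 0.704 times the expected frequency, with Z scores of 0.10 and 0.78 in keratinocytes and 0.01 and -0.65 in thymocytes. The contact was not called in any library.

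Contacts between enhancers of the study made up 71 of the 2877, with each fragment within 10 kb of a different enhancer. The enhancers at the left, E1 to E7, met E11 to E15 at the right, 3023 to 5026 kb away. The mean Z score of these contacts was 0.74 and 0.83 in keratinocytes and 0.06 and 0.18 in thymocytes, against 0.48, 0.61, 0.39 and 0.45 over all shared very long contacts. Their median frequency was 73.2 and 48.3 in keratinocytes and 120 and 71.4 in thymocytes, so the second thymocyte library lay below the first keratinocyte library on that scale. In keratinocytes 2 of the 71 were called and in thymocytes 1. Of all 2877 shared very long contacts 52 (1.81%) and 56 (1.95%) were called. The study defined these enhancers by histone marks in keratinocytes, and whether that choice bears on the difference was not tested. The contacts share fragments, so no test was made.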

How the data were processed

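5C libraries of mouse keratinocytes and thymocytes (2 each) were analysed. The authors aligned reads to the probe sequences with Bowtie (version not given in the sources used here, build mm9), counted forward-reverse pairs, removed poor probes and single extreme contacts and corrected for probe coverage by Loess in each library. The deposited signal is this corrected 5C frequency, with the expected frequency and its weighted SD. As a score they deposited the Z score, computed by the authors from these 3 values, and the p-value and q-value that they deposited come from a Weibull fit to it, per library. The remaining deposited values are fragment coordinates and distances. Raw counts were not used here, so depth is unknown. The deposited p-values and q-values compare a contact with the other contacts of its library. The limma p-values measure only the spread between these libraries.

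From these tables, contacts of 3000 kb or more were taken, and cell types were compared over those listed in all 4 libraries, as means with SD. All 712 fragments but 1 start at a HindIII site of NCBIM37 (mm9). Genes were read from GENCODE M1, and TAD borders, enhancers and probe sequences from the tables of the study, which held a probe for 710 of the 712 fragments. Keratinocyte borders were used for both cell types. Differences of single contacts were tested with limma 3.58.1 (lmFit, eBayes with trend, R 4.3.3) on the Z scores of 23395 contacts with Benjamini-Hochberg adjustment at 0.05, after a test on simulated data. Other values were computed with Python 3.11.15 and pandas 2.3.3.

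The members, lists and tests were chosen with earlier results of these data known. Named were the 8 contacts with the highest lowest Z score among those called in all 4 libraries, the 4 with the highest lower Z score per cell type, the longest contact, and per cell type the 4 fragments with most called contacts, extended to 5 by ties. Titles pair no libraries. Alternatives covered scale, summary, contacts used, distance and q-value thresholds, limma settings, TAD borders, a replicate block and each library left out; counting unlisted pairs as 0 and the level relative to 1000 to 2000 kb were added after seeing the data.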

Additional observations from a re-analysis of the deposited data

How the results depend on the processing

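The difference in log2 frequency of very long contacts, keratinocytes minus thymocytes, was -0.78 and turned with the scale. It was 0.29 at the same total, -1.48 at the same median at 1000 to 2000 kb and 0.27 with unlisted pairs counted as 0. Division by the expected frequency gave 0.0098, but that expectation is fitted within each library at each distance, so it removes most of any difference in level. The deposited difference ranged from -1.03 to -0.54 when 1 library was left out. With unlisted pairs as 0 it was -0.22 without the first and 0.77 without the second keratinocyte library. Without the first and the second thymocyte library it was 0.25 and 0.30. The mean Z score difference of 0.12 was 0.030 with medians, 0.020 with all listed contacts and -0.0048 from 2500 kb on, and 0.06 to 0.19 without 1 library. The rise from 3 to 5.3 Mb, 0.85 on the log2 scale as the mean of 4 libraries, was 0.70 with means, 1.00 between the first 250 kb and 5000 kb or more, and 0.79 to 0.90 without 1 library. With unlisted pairs at 0 the median is 0 in both thymocyte libraries and gives no ratio, and the mean gave 0.84.

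Called contacts in keratinocytes were 212, or 129 at a q-value under 0.01, 52 among contacts listed in all 4 libraries and 1075 to 1578 when 1 library sufficed. In thymocytes they were 97, or 56 among contacts in all 4 and 505 to 986 in 1 library. Limma called 0 very long contacts under every setting run. The number of TAD pairs higher in keratinocytes was 7 of 7 in Z score, 0 in log2 frequency, 5 of 5 with thymocyte borders, 5 with medians and 5 to 6 without 1 library. By pair, the Z score difference turned for TAD1 with TAD4 without the first thymocyte library (range without 1 library -0.031 to 0.19), TAD1 with TAD5 without the second keratinocyte or second thymocyte library (-0.40 to 0.61, with -0.058 for the latter), TAD2 with TAD7 without the second keratinocyte library (-0.17 to 0.42) or with medians (-0.047), TAD3 with TAD7 without the first keratinocyte library (-0.016 to 0.34) and TAD2 with TAD6 with medians (-0.00016).

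With 1 library of each number per cell type, a replicate block cannot move the differences of -0.78 and 0.12 or the 7 TAD pairs. Only limma was refitted with the block, and it again gave 0 calls. Libraries of the same number did not deviate together (r = -0.09 over 23395 contacts), and the labels give no pairing. Depth is unknown, and unlisted pairs, which were between 19.9% and 72.9% of the pairs of a library, limit every comparison of absolute level.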
